A study of Homo sapiens with 6 samples.

Results

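The 10 genes described here are part of the transcriptional output of the ERK pathway and of its feedback. They are the transcription factor genes ETV1, ETV4 and ETV5, the phosphatase genes DUSP4 and DUSP6, the Sprouty genes SPRY1, SPRY2 and SPRY4, and the SPRED genes SPRED1 and SPRED2. They were taken by name from the 15492 rows (transcript clusters) of a whole-transcript Affymetrix array table. A row counted only where its single annotated symbol was one of these genes. All 10 genes had 1 row each. The set was chosen by name but selected on measured values, the low ETV5 and DUSP6 levels of both APE1 lines. For that reason every difference of these 10 genes between those lines and the vector line is given below as a description, with no test.

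The samples come from 3 lines made from HEK293, an immortal line of human embryonic kidney cells. HEK293/pcDNA-FRT empty vector is called vector here, HEK293/pcDNA-FRT wtAPE1 expresses wild-type APE1, and HEK293/pcDNA-FRT ubAPE1 expresses a fusion of ubiquitin to APE1, in both cases from a tet-on promoter. Each line was sampled untreated and after treatment with doxycycline, which turns the promoter on (2 µg/ml for 16 h). All cultures, the vector line included, were kept in serum-containing DMEM/F12 with glutamine and puromycin (1 µg/ml). The authors averaged 3 biological replicates into 1 column for each of the 6 groups. Replicate spread is therefore absent from the values, and the number of columns limits the precision of every statement. Whether a line is 1 clone is not given in the sources used here, so a difference between lines cannot be told apart from a difference between clones.

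As background, growth factors bind receptor tyrosine kinases, which load RAS with GTP, and RAS then drives the RAF, MEK and ERK kinases in turn. Active ERK enters the nucleus and raises transcription of a compact set of genes, partly by disabling Capicua (CIC), a repressor that otherwise sits on the ETV1, ETV4 and ETV5 genes and on some feedback genes. Several of the induced products then dampen the same pathway. DUSP6 removes phosphate from ERK in the cytoplasm, DUSP4 does so in the nucleus, Sprouty proteins act between the receptor and RAF, and SPRED proteins bring neurofibromin to RAS. The mRNA of these genes is for that reason often read as a measure of ERK output in epithelial and tumour cells.

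Because several of the genes lay low together, the RefSeq promoter windows (assembly GRCh38.p14, 250 bases before to 50 after a transcription start) were searched for sites of factors that act at the end of the pathway. Of the 10 genes, 7 had 16 windows in the table, namely ETV1, DUSP6, SPRY1, SPRY2, SPRY4, SPRED1 and SPRED2. The CIC octamer was searched as TGAATGAA, TGAATGGA, TCAATGAA or TCAATGGA on both strands. It was found in 2 of the 16 windows, against 3.77% of all 35116 windows. These belong to 2 of the 7 genes, ETV1 and DUSP6 (1 window each), against 4.62% of all 27305 genes. A gene with more windows has more chances of a match, and ETV1 has 6, so the shares of genes are not like for like. The 250 bases before the start are shown for both genes, and for SPRY4 as a gene that also lay low and has no match. Capitals mark the octamer, and each sequence reads 5′ to 3′ on the minus strand, at chr7:13991426-13991675 for ETV1 (the most upstream of its 6 starts), chr12:89352502-89352751 for DUSP6 and chr5:142324248-142324497 for SPRY4.
ETV1: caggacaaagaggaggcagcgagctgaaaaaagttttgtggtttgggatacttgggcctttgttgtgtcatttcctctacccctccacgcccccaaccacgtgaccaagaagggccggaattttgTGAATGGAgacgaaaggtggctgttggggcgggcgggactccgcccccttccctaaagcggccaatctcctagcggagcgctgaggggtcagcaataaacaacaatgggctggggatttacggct
DUSP6: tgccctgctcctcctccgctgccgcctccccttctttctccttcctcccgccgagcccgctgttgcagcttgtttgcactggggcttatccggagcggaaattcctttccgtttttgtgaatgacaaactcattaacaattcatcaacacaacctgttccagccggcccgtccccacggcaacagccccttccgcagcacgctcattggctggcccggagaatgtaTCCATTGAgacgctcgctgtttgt
SPRY4: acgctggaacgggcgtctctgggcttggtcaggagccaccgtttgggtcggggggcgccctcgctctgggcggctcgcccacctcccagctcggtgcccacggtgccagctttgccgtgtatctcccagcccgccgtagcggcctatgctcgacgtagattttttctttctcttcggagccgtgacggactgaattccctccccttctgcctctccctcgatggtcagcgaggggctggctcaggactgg

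In ETV1 the octamer began 125 bases before the start, and in DUSP6 it lay on the other strand with its first printed base 24 bases before the start. DUSP6 held a second copy beginning at base 2 of the transcript. The ETS core CCGGAA, a binding motif of the ETV family's own DNA-binding domain, was searched on either strand. It was found in 5 of the 16 windows, against 17.2% of all windows. These lie in 3 of the 7 genes, ETV1, SPRY1 and SPRY2, against 20.1% of all genes. The copies in 2 overlapping ETV1 windows are the same bases. The longer ETS form CCGGAAGT, which contains the core, was in none of the 16 windows and in 4.14% of all. The AP-1 site TGACTCA was found 6 bases before 1 start of SPRED2 and in 4.95% of all windows. Neither the cAMP response element TGACGTCA (1.85% of all windows) nor the serum response CArG box (1.29%) was in any of the 16. A match describes the letters of these windows and is not evidence of binding, and no match speaks only of these 300 bases.

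Before the results, 3 facts of the whole series bear on them. APEX1, the gene that encodes APE1, was higher with doxycycline in the lines labelled as inducible, at 10.67 against 9.50 log2 for wtAPE1 and 10.58 against 9.82 for ubAPE1, with 9.66 against 9.54 for vector (values with no test). The columns are shifted against each other, with medians between 6.07 and 6.28 log2, so differences below are stated relative to the median row, except that estimates printed with a limma p or interval are as deposited, the scale on which they were tested. Taking differences relative to the median row subtracts the median difference of the 11619 rows that a filter on low values kept. The filter kept rows whose mean over the 6 columns was at or above the 25th percentile (5.03 log2). It kept 8 of the 10 genes and left out ETV1 (mean 4.90) and SPRY4 (mean 5.02), which lay above that value only in the vector columns. Levels and differences are therefore described over all 15492 rows, so that no gene is lost.

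The 3 ETV genes, which encode the PEA3 group of ETS transcription factors, showed the widest separation between the vector line and both APE1 lines. Without and then with doxycycline, ETV5 was at 7.16 and 7.14 log2 in the vector line, at 4.94 and 4.59 in the wtAPE1 line, and at 5.06 and 4.91 in the ubAPE1 line. Both vector columns thus lay 2.08 log2 above the highest APE1 column, whereas the 4 APE1 columns spanned 0.48 log2. Averaged over both doxycycline states, the difference of ETV5 from the vector line was -2.25 log2 (4.75-fold lower) for wtAPE1 and -2.09 log2 (4.26-fold lower) for ubAPE1, each relative to the median row. Counted from the lowest, it ranked 9 and 14 of 15492 rows in these differences. The standard error (SE) was 0.16 for each. Here and for the other genes, the SE is that of the difference as deposited, in the fit described below. For ETV1 and SPRY4 it comes from the same fit over all rows.

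ETV1 was at 6.31 and 6.23 log2 in the vector line (without and with doxycycline), at 4.09 and 4.21 in the wtAPE1 line, and at 4.42 and 4.16 in the ubAPE1 line. In the vector columns it lay near the middle of all rows, at the 50.7th and 50.1th percentile. In the wtAPE1 columns it lay at the 10.0th and 11.7th percentile and in the ubAPE1 column with doxycycline between these. Its differences from the vector line were -1.98 log2 for wtAPE1 and -1.91 for ubAPE1 (SE 0.15 for each). In untreated wtAPE1 it was at 4.087 log2, just under the 10th percentile of all values (4.090 log2). The remaining APE1 columns, from 4.16 to 4.42 log2, lay close above that percentile, so these sizes are not precise. ETV4 was at 7.26 and 7.11 log2 in the vector line, at 5.33 and 5.39 in the wtAPE1 line, and at 5.51 and 5.42 in the ubAPE1 line. The 4 APE1 columns of ETV4 spanned only 0.18 log2, and the gap up to the vector columns was 1.60. Its differences were -1.68 log2 (3.21-fold lower) and -1.64 log2 (3.13-fold lower, SE 0.15 for each), at ranks 33 and 36 from the lowest.

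**Figure D1:**
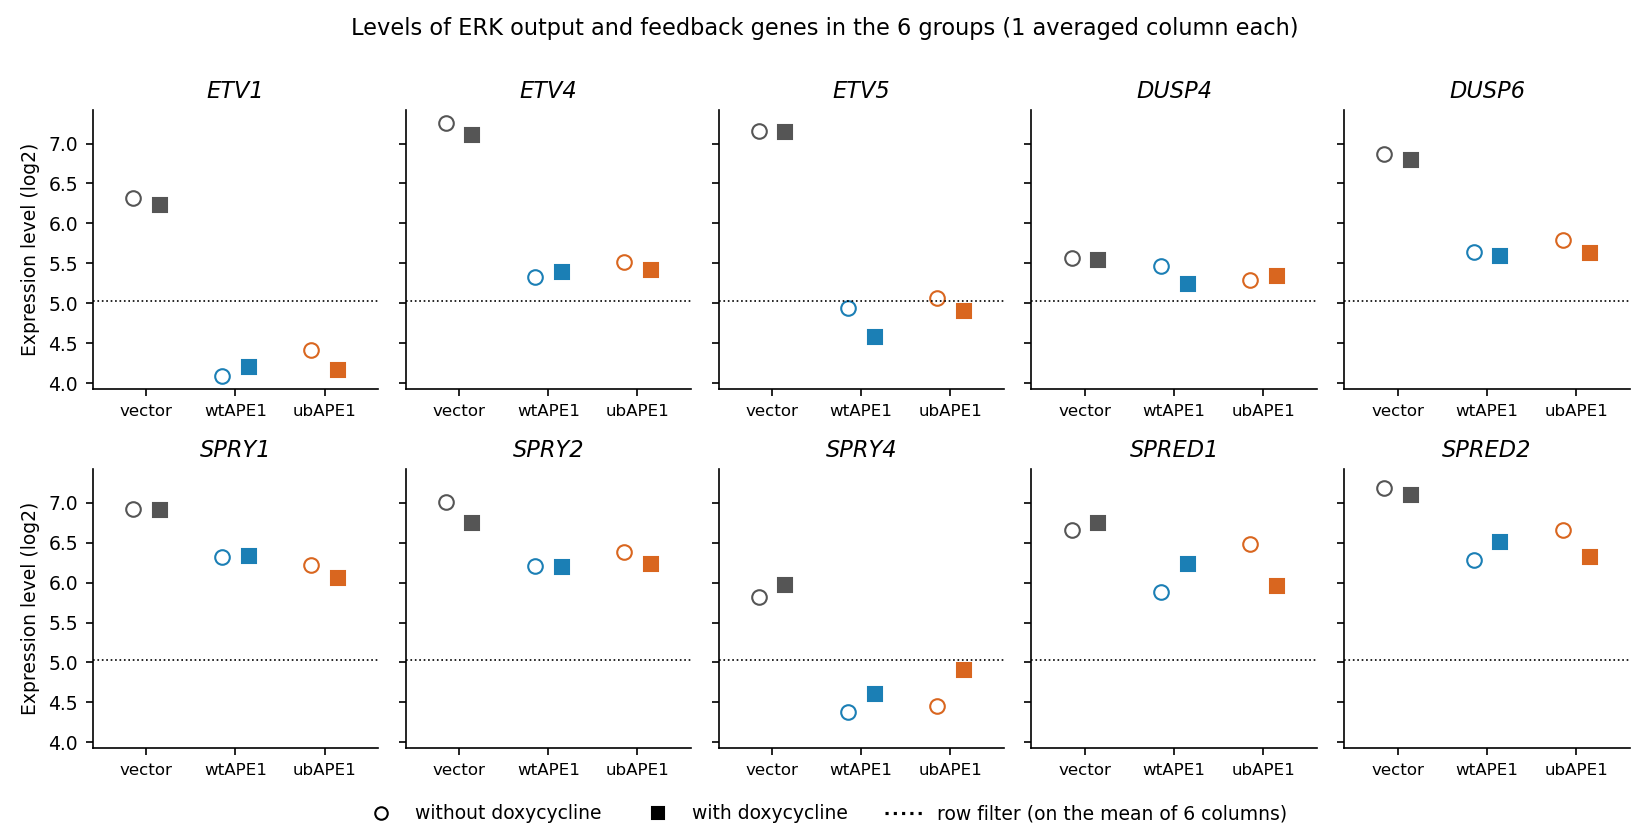
Expression level (log2, y axis) of the 10 genes in the 3 lines (x axis), without doxycycline (open circles) and with it (filled squares); each point is 1 averaged column, the dotted line is the row filter applied to a gene's mean over the 6 columns, and levels compare columns within a gene, not genes. ETV1, ETV4, ETV5, DUSP6 and SPRY4 separate the vector columns from the 4 APE1 columns by 0.91 to 2.08 log2, while DUSP4 does so by 0.08.

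Of the 2 phosphatases, DUSP6 followed the ETV genes and DUSP4 did not. DUSP6, the ERK-specific phosphatase of the cytoplasm, was at 6.87 and 6.79 log2 in the vector line, at 5.65 and 5.59 in the wtAPE1 line, and at 5.80 and 5.62 in the ubAPE1 line. Its values were nearly level within each line, and the vector columns lay 0.99 log2 above the rest. Its differences were -1.07 log2 (2.10-fold lower) for wtAPE1 and -1.05 log2 (2.07-fold lower) for ubAPE1 (SE 0.15 for each). DUSP4, its nuclear relative, was at 5.56 and 5.55 log2 in the vector line, at 5.46 and 5.25 in the wtAPE1 line, and at 5.29 and 5.34 in the ubAPE1 line. As deposited, its vector columns were the highest by 0.08 log2. Relative to the median row, DUSP4 in the untreated wtAPE1 line was above the vector line by 0.11 log2, so the groups overlap, and its mean differences were -0.06 and -0.16 (SE 0.15 for each).

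Among the Sprouty genes, SPRY4 stood apart from SPRY1 and SPRY2. SPRY4 was at 5.82 and 5.97 log2 in the vector line, at 4.38 and 4.61 in the wtAPE1 line, and at 4.45 and 4.91 in the ubAPE1 line. Its differences were -1.26 log2 (2.40-fold lower) and -1.14 log2 (2.21-fold lower, SE 0.15 for each). SPRY2 was at 7.01 and 6.75 log2 in the vector line, at 6.20 and 6.20 in the wtAPE1 line, and at 6.38 and 6.23 in the ubAPE1 line. SPRY1 was at 6.92 and 6.91 log2 in the vector line, at 6.32 and 6.34 in the wtAPE1 line, and at 6.22 and 6.05 in the ubAPE1 line. In both genes the vector columns were the highest, but by 0.37 log2 in SPRY2 and by 0.57 in SPRY1. SPRY2 differed from the vector line by -0.54 and -0.50 log2 and SPRY1 by -0.45 and -0.70 (wtAPE1 and ubAPE1, SE 0.15 for each).

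The SPRED genes, whose products couple RAS to its inactivator neurofibromin, gave the least even picture. SPRED2 was at 7.18 and 7.09 log2 in the vector line, at 6.28 and 6.51 in the wtAPE1 line, and at 6.66 and 6.32 in the ubAPE1 line. SPRED1 was at 6.66 and 6.75 log2 in the vector line, at 5.88 and 6.23 in the wtAPE1 line, and at 6.48 and 5.96 in the ubAPE1 line. For SPRED1 the 4 APE1 columns spanned 0.60 log2, more than the 0.18 log2 between them and the vector columns. Mean differences from the vector line were -0.60 and -0.57 log2 for SPRED2 (SE 0.18) and -0.51 and -0.41 for SPRED1 (SE 0.21).

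**Figure D2:**
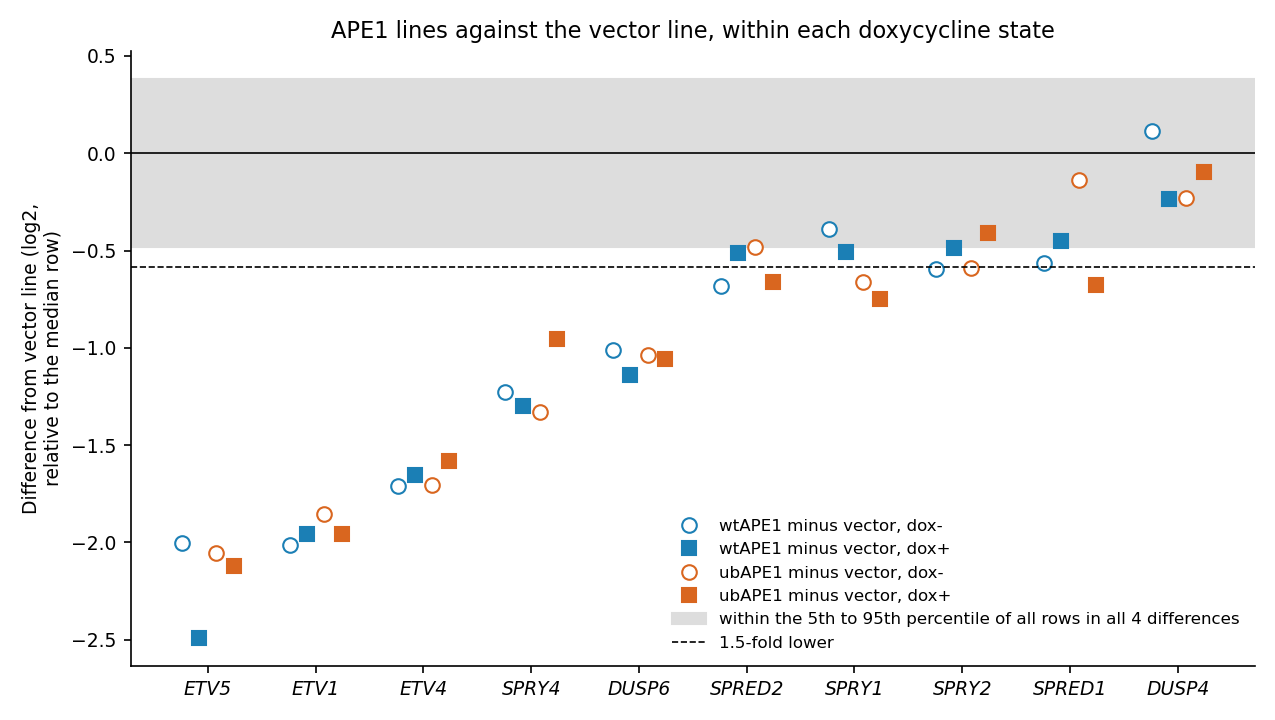
Difference of each APE1 line from the vector line (log2, relative to the median row, y axis) for the 10 genes (x axis, ordered by mean difference), taken within each doxycycline state; the grey band is the range that lies inside the 5th to 95th percentile of all 15492 rows in all 4 differences and the dashed line marks 1.5-fold lower. ETV5, ETV1, ETV4, SPRY4 and DUSP6 lie below the dashed line in all 4 differences, and the other 5 genes lie near the line or in the band.

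Over the whole group, 5 of the 10 genes (ETV1, ETV4, ETV5, DUSP6 and SPRY4) were at least 1.5-fold lower than the vector line in both APE1 lines and both doxycycline states, against 1.73% of all rows. At least 2-fold lower in all 4 differences were ETV1, ETV4, ETV5 and DUSP6, against 0.581% of all rows. In all 10 genes both vector columns lay above the 4 APE1 columns as deposited (22.4% of all rows), and with each column centred on its median this held for 9 (13.8% of all rows), DUSP4 being the exception. All 4 differences were below 0 in 9 genes (18.8% of all rows). Taken 1 at a time, the differences of wtAPE1 from vector were at least 1.5-fold lower in 7 genes without doxycycline (4.85% of all rows) and 5 with it (4.65%). For ubAPE1 the counts were 7 (3.32%) and 8 (7.86%). The median difference over the 10 genes was -0.84 log2 for wtAPE1 and -0.88 for ubAPE1, where the median over all rows was 0.04 and 0.02. These counts use the contrast in view of which the genes were picked, and nothing is read from them. The differences of the 2 APE1 lines also share the vector columns.

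The response to doxycycline was not used to pick the genes. In the vector line none of the 10 genes differed by 1.5-fold (0.871% of all rows were lower and 0.859% higher by that much), and the responses ran from -0.21 log2 (SPRY2) to 0.20 (SPRY4) relative to the median row. In the wtAPE1 line none did so either (0.975% lower and 0.691% higher). There ETV5 had the lowest response of the 10 genes, -0.43 log2, at the 2.55th percentile of all rows, and SPRED1 had the highest, 0.28, at the 91.9th. The ETV5 response was -0.35 log2 as deposited. It lies between low levels, 4.94 and 4.59 log2, at the 24.1th and 17.6th percentile of their columns, so its size is not precise. In the ubAPE1 line SPRY4 reached 0.59 log2, just past the 1.5-fold limit (0.58 log2) that 2.21% of all rows passed upward, and none of the 10 genes passed it downward (3.35% of all rows). Its response was at the 97.8th percentile. As deposited its response was 0.46 log2, short of that limit, and the level it reached, 4.91 log2, was at the 23.5th percentile of its column. The median response of the 10 genes was -0.00275 log2 in the vector line, -0.04 for wtAPE1 and -0.03 for ubAPE1, against 0.00880, -0.02 and 0.05 over all rows.

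Some genes responded unevenly between the lines. ETV5 responded by 0.03 log2 for vector, -0.43 for wtAPE1 and -0.02 for ubAPE1. SPRED1 responded by 0.14, 0.28 and -0.39 log2 in the same order, and SPRED2 by -0.05, 0.15 and -0.22, so both SPRED genes were positive for wtAPE1 and negative for ubAPE1. DUSP4 had the opposite signs in these lines, with -0.29 and 0.18 log2 after 0.03 in the vector line. Neither pattern is particular to these genes. Among the other pathway genes read below, SHOC2 (0.51 for wtAPE1 and -0.27 for ubAPE1) and NF1 (0.34 and -0.33) had the signs of the SPRED genes. IER3 (-0.41 and 0.34) and RRAS2 (-0.18 and 0.35) had those of DUSP4. The share of all rows with either pattern was not counted. With 1 column per group these differences between responses have no test. ETV1, ETV4, DUSP6 and SPRY1 stayed within 0.13 log2 of the median row in every line.

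**Figure D3:**
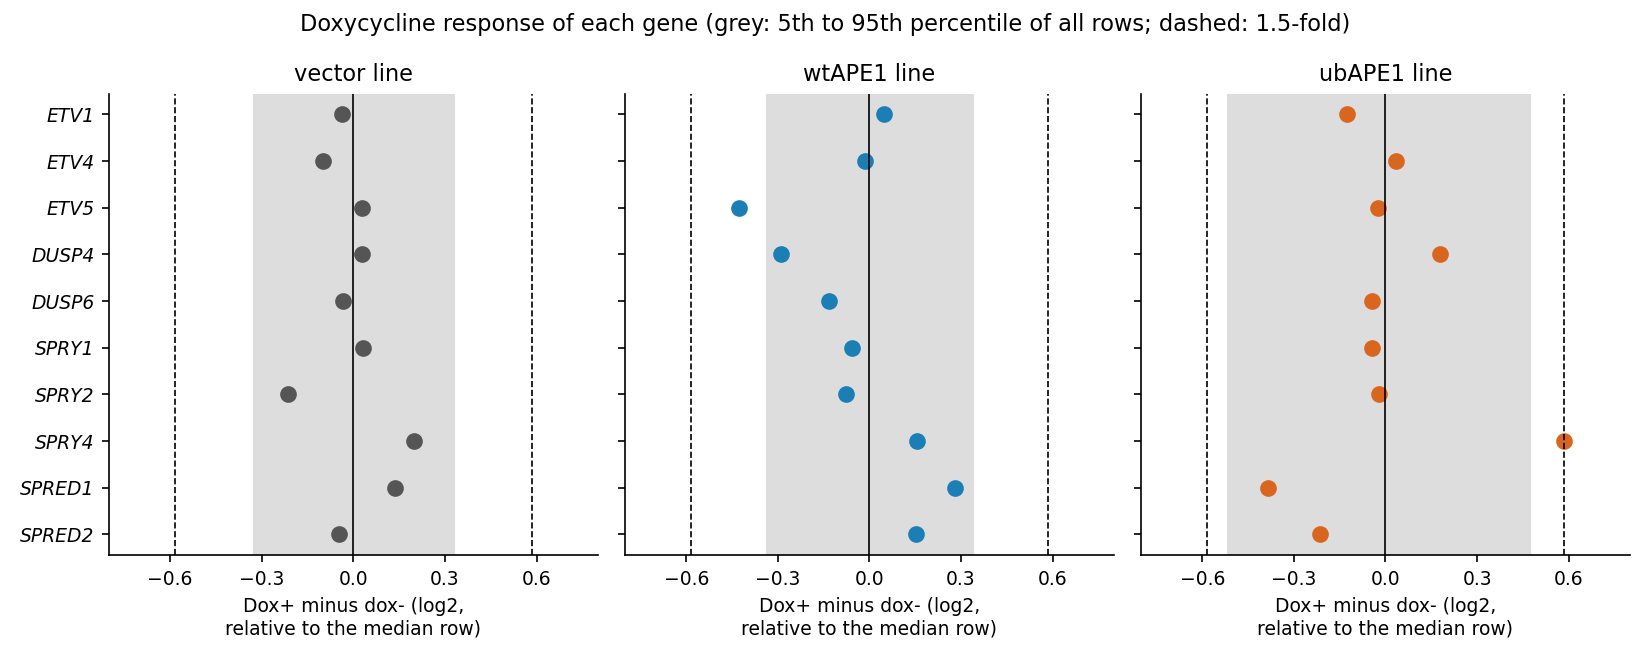
Response to doxycycline (log2 difference, relative to the median row, x axis) of the 10 genes (y axis) in the 3 lines; each point is 1 column minus another, the grey band holds the 5th to 95th percentile of all 15492 rows in that line, and dashed lines mark 1.5-fold. ETV5 at -0.43 in the wtAPE1 line and SPRY4 at 0.59 in the ubAPE1 line lie outside their bands, both between low levels. By construction each band leaves out the lowest 5% and the highest 5% of all rows.

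The effect of doxycycline common to the 3 lines was tested with limma in an additive fit with cell line and doxycycline as terms, in which departures from additivity stand in for replicate spread (2 residual degrees of freedom, 6.28 prior). Adjusted by Benjamini-Hochberg over the 11619 kept rows, 0 rows were higher and 0 lower (0.0% in each direction), and 194 had an unadjusted p under 0.05. None of the 8 kept genes was among those 194. Each of them had a limma adjusted p of 1.0, with effects as deposited between -0.17 log2 (ETV5, 95% interval -0.47 to 0.12) and -0.02 (SPRED1, -0.42 to 0.38). In the same fit over all rows, ETV1 had an effect of -0.07 log2 (-0.36 to 0.22). SPRY4 had 0.28 log2 (-0.00289 to 0.56) and a limma adjusted p of 1.0. It was higher in each of the 3 lines. For all 10 genes the interval lay inside a 1.5-fold change. It bounds only an effect shared by the 3 lines, the vector line included, and not a response of the APE1 lines alone. On simulated data, 37.5% of rows given a 2-fold doxycycline effect and 93% of rows given a 4-fold one were recovered. The simulated data took each row's residual spread as its true spread, with 200 changed rows and no column shifts. Recovery rates here and below therefore hold for that setting and need not hold for the measured values.

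The 2 APE1 lines were then compared with each other over both doxycycline states. In this fit the vector columns enter only through the spread, but they also count in the row filter. The 10 genes were picked in view of low ETV5 and DUSP6 levels in both APE1 lines. A small difference between these lines was thus favoured in advance, above all for ETV5 and DUSP6. The tests of the 10 genes in this contrast are not independent of that choice. In limma, 0 rows were higher and 0 lower (0.0% each), and 47 had an unadjusted p under 0.05, none of them a row of the 8 kept genes. ETV5 was higher in the ubAPE1 line by 0.22 log2 as deposited (95% interval -0.14 to 0.59), and SPRY1 was lower by 0.19 (-0.54 to 0.15). The APE1 columns of ETV5 lay at low levels, from 4.59 to 5.06 log2, so the size of its difference is not precise. DUSP6 differed by 0.09 log2 (-0.25 to 0.43) and ETV4 by 0.10 (-0.24 to 0.45). The limma adjusted p was 1.0 for each of the 10 genes, and the interval lay inside a 1.5-fold difference for 8 of them, the exceptions being ETV5 and SPRED1 (0.16, -0.32 to 0.65). In simulated data this contrast recovered 0% of rows that differed 2-fold and 81.5% of rows that differed 4-fold.

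The other genes of the pathway were read from 7 lists, from ligands to transcription factors, with 105 of 137 listed genes measured and 84 kept. The 2 line contrasts were tested for these genes in the same limma fit. The lists were chosen with earlier results of these data known, so these tests are not independent of that choice. Over all kept rows, 2.01% were lower and 0.103% higher for wtAPE1 against vector, and 1.31% and 0.0861% for ubAPE1 against vector. These splits depend on the scaling of the columns. The 12 rows higher and 233 lower in the wtAPE1 line became 188 and 468 with the columns centred and 127 and 431 after quantile normalization. In the ubAPE1 line 10 and 152 became 126 and 413, and 98 and 336. The prior degrees of freedom were 27.3 after quantile normalization and infinite with centred columns, against 6.28 as deposited. With centred columns all rows thus shared 1 estimate of spread. The p-values of these 2 settings rest on that stronger pooling. Of the 84 listed genes, 2 were lower for wtAPE1 and 1 for ubAPE1, and none was higher, a share near that of all rows. With centred columns 4 were lower and 1, DUSP9, higher for wtAPE1, and 5 were lower for ubAPE1. Without the ubAPE1 line 10 were lower for wtAPE1, a setting in which 939 of all 11619 kept rows were lower. These counts thus move with those over all rows. In simulated data 0% of rows with a 2-fold difference between a line and vector were recovered and 83% of rows with a 4-fold one, so a gene that did not pass may still differ.

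At the top of the pathway, 10 of 17 ligand genes were measured and 5 kept, of which FGF9 was lower in both lines. FGF9, a fibroblast growth factor, was at 7.27 and 7.37 log2 in the vector line, at 5.71 and 5.87 in the wtAPE1 line, and at 6.07 and 5.76 in the ubAPE1 line. Its difference from vector as deposited was -1.53 ± 0.17 log2 (SE) for wtAPE1 (limma adjusted p = 0.00431) and -1.40 ± 0.17 for ubAPE1 (limma adjusted p = 0.00694), or -1.39 and -1.33 relative to the median row, with both doxycycline states lower in each. Of 18 receptor tyrosine kinase genes, 17 were measured and 15 kept. MET, the receptor of hepatocyte growth factor, was lower for wtAPE1 (-1.22 ± 0.20 log2 as deposited, limma adjusted p = 0.0194), a call that leaving out the untreated wtAPE1 column (adjusted p = 0.0984) or the treated vector column (adjusted p = 0.0697) ends. For ubAPE1 its difference was -1.02 ± 0.20 log2 as deposited (limma adjusted p = 0.0522). It passed after quantile normalization (limma adjusted p = 0.00101) and with centred columns (2.95e-05), although the estimates there were smaller (-0.89 and -0.91 log2). The EGF receptor relative ERBB4 differed by -0.81 and -0.81 log2 as deposited (limma adjusted p = 0.0579 and 0.0704). It passed in both lines after quantile normalization (limma adjusted p = 0.0132 and 0.0110), with centred columns (0.0115 and 0.00336) and with an intensity trend (0.0353 and 0.0434). Its relative ERBB3 was under the row filter and differed by -0.66 and -0.74 log2 relative to the median row. EGFR itself differed by -0.17 and -0.28 log2 and FGFR1 by -0.05 and -0.01.

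Between the receptors and ERK no listed gene passed, although RPS6KA2 and RPS6KA3 passed for wtAPE1 without the ubAPE1 line, and SOS2, SHOC2 and RPS6KA3 without the treated wtAPE1 column. The adaptors and RAS regulators had 14 of 18 genes measured and 11 kept, with SOS2, a RAS exchange factor, at -0.43 and -0.27 log2 and neurofibromin (NF1) at -0.30 and -0.17. RASGRP1, another exchange factor, was under the row filter, at 4.98 and 4.58 log2 in the vector line and between 3.41 and 3.66 in the 4 APE1 columns, all of these below the 10th percentile of all values (4.09 log2), so no size is given for its difference. It is named after its values were seen. The cascade itself had 14 of 23 genes measured and 13 kept. Its members with the largest differences were the ERK-activated kinases RPS6KA2 (-0.41 and -0.56 log2) and RPS6KA3 (-0.54 and -0.31), and MAPK3, which encodes one of the ERK kinases, was at -0.12 and -0.11. The median difference over the measured cascade genes was -0.00368 log2 for wtAPE1 and -0.06 for ubAPE1.

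Other transcripts that ERK is known to induce did not pass either, in 17 kept of 20 measured and 22 listed. JUN, a subunit of AP-1, was at -0.62 and -0.67 log2 as deposited (limma adjusted p = 0.0951 and 0.0996). It passed for ubAPE1 after quantile normalization (limma adjusted p = 0.0418) and with centred columns (0.0394), and for wtAPE1 without the ubAPE1 line (0.0335). The immediate early gene EGR1 was at -0.50 and -0.57 as deposited (limma adjusted p = 0.159 and 0.153). Relative to the median row, FOS was at 0.01 and -0.16 log2, PHLDA1 at 0.33 and 0.11, and cyclin D1 (CCND1) at -0.36 and -0.28. The list's medians were 0.07 and -0.01 log2. Of the other feedback genes, 15 of 17 were measured and 12 kept, with medians of -0.09 and -0.13. The stress-inducible phosphatase DUSP1 was at -0.76 and -0.67 log2 as deposited (limma adjusted p = 0.0708 and 0.134) and passed in both lines with centred columns (0.0261 and 0.0392). Relative to the median row, DUSP5 was at -0.29 and -0.43, and DUSP9 at 0.56 and 0.31. Among other ETS factors and CIC, 15 of 22 genes were measured and 11 kept, with medians of 0.08 and 0.10. CIC itself was at 0.18 and 0.17 log2 as deposited (limma adjusted p = 0.539 and 0.777), and SPDEF at 0.32 and 0.18 relative to the median row. In the lists as in the 10 genes, the common doxycycline effect and the contrast of the 2 APE1 lines had 0 calls.

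**Figure D4:**
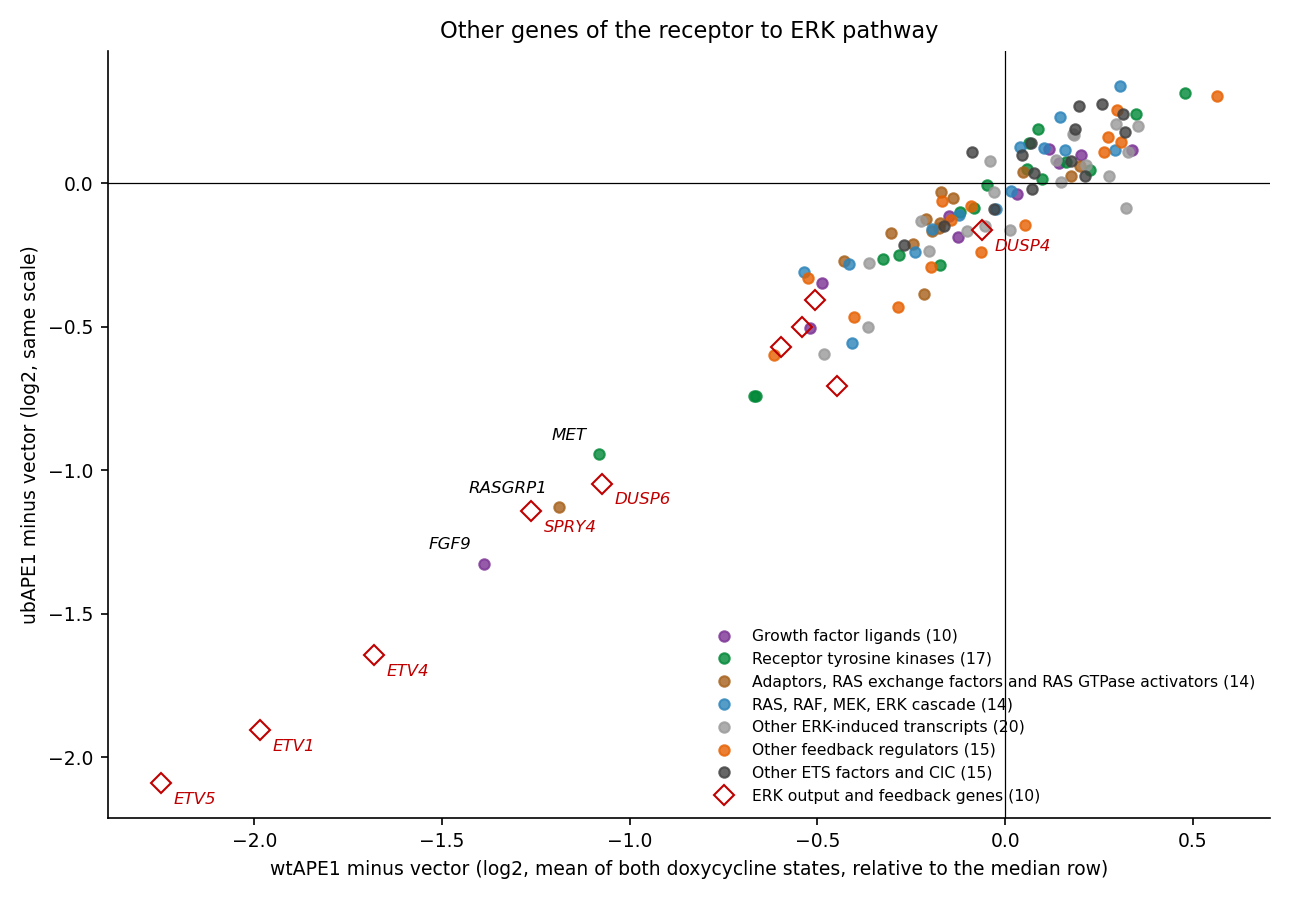
Difference from vector of wtAPE1 (x axis) and ubAPE1 (y axis), log2, mean of both doxycycline states and relative to the median row, for 105 measured genes of 7 pathway lists (dots) and the 10 output and feedback genes (red diamonds); both axes share the vector columns. Most listed genes lie near 0. FGF9 (-1.39 and -1.33) lies below DUSP6 and SPRY4 on both axes, and MET (-1.08 and -0.94) lies beside DUSP6. RASGRP1 is drawn at its measured values, which are under the 10th percentile of all values in the APE1 columns.

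The kept rows most like 3 of the genes were then found by the root mean square difference (RMS, log2) between values centred on each gene's own mean over the 6 columns, among 9653 rows with 1 symbol. Nearest to ETV5 were SGPP2 (RMS 0.13), a sphingosine phosphate phosphatase, GLDC (0.19), the glycine cleavage enzyme, and NIBAN1 (0.20). GPM6A (0.22), a neuronal membrane glycoprotein, and the kinesin KIF1A (0.23) followed. Of the other 9 genes, ETV1 was at an RMS of 0.18 from ETV5, closer than all of these but SGPP2, and ETV4 at 0.27. Nearest to DUSP6 were RDM1 (0.05), the matrix protein gene NPNT (0.06), the adhesion gene CADM4 (0.06), the growth factor gene FGF5 (0.06) and the transcription factor gene BHLHE40 (0.07). Of the other 9 genes SPRY4 came closest to DUSP6, at 0.22 and only rank 194, and ETV5 was at 0.53 and rank 5537. SPRY1, taken because its row had the highest mean array value of the Sprouty genes (6.46 log2, as for SPRY2 to 2 decimals, and no measure of abundance), was nearest to TFCP2L1 (0.02), JUN (0.06), ARHGEF28 (0.07), CDKN3 (0.07) and RPS6KA2 (0.07). JUN and RPS6KA2 are thus the genes of the pathway lists whose 6 values ran closest to those of SPRY1. Of the other 9 genes SPRED2 and SPRY2 came closest to SPRY1, each at 0.14, at ranks 178 and 180. These distances describe 6 columns in which the vector line stands apart.

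The line differences of the 10 genes stood beside differences in markers of cell identity. Of 9 kidney markers 7 were measured, with column means between 5.85 and 5.96 log2. Single members differed both ways, with LRP2 at -0.78 and -0.81, LHX1 at 0.53 and 0.49, SIX2 at 0.47 and 0.43, and PAX8 at 0.44 and 0.24. All 8 epithelial markers were measured, and their mean was 7.31 and 7.37 log2 in the vector columns and 6.03 to 6.11 in the APE1 columns. EPCAM (-3.02 and -2.98 log2), MAL2 (-4.66 and -4.79) and KRT19 (-0.86 and -0.89) were at least 1.5-fold lower in all 4 differences. CDH1 (-0.46 and -0.54) and KRT18 (-0.44 and -0.42) differed less, and KRT8 by 0.07 and -0.03. CLDN3 was at 0.24 and 0.13 and CLDN7 at 0.16 and -0.00459. Most of the fall in the list mean thus came from MAL2 and EPCAM. In the APE1 columns MAL2 (4.01 to 4.20 log2) and CDH1 (3.98 to 4.20) lay around the 10th percentile of all values, so their sizes are not precise. Of 5 measured neuronal markers of 7, ENO2 (-2.40 and -2.51) and NEFL (-0.68 and -0.70) were lower in the same way, NEFH was at 0.39 and 0.17 and INA at -0.25 and -0.13, and the list's column means ran from 5.92 to 6.86. Of 4 measured fibroblast and smooth muscle markers of 8, COL3A1 was higher (0.70 and 0.60), with column means from 5.15 to 5.41, and THY1 was below the 10th percentile of all values (4.09 log2) throughout. Of 4 measured blood cell markers of 7, none passed in all 4 differences, column means ran from 4.60 to 4.87, and CD3E and HBB were below that percentile in all 6 columns. The part of cell identity in the differences of the 10 genes was not tested.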

How the data were processed

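Total RNA of 6 groups was measured on Affymetrix whole-transcript arrays. The authors deposited log2 levels per transcript cluster, each column a mean of 3 biological replicates per the labels. That the scale is log2 was judged from their range. How probes were corrected, summarised and normalized is not given in the sources used here. Genome build hg 18 is named in the submitters' processing notes. Genes were named from the platform's annotation, and 12616 rows had 1 symbol, 2031 several and 845 none.

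The members and lists were chosen with earlier results of these data known. Size comparisons used the median difference over kept rows as zero and a 1.5-fold limit. Tests used lmFit and eBayes of limma 3.58.1 in R 4.3.3 on the values as deposited, with p-values adjusted by Benjamini-Hochberg over the kept rows (threshold 0.05), and were tested on simulated data. Lines or doxycycline states stand in for replicates, so p-values measure evenness across them. All 10 genes, APEX1, and the 5 nearest profiles of ETV5, DUSP6 and SPRY1 are named. From each pathway list the genes called in both line contrasts are named, or else the 2 kept genes with the largest mean difference, and further genes are named after their values were seen. Alternatives were other row filters, quantile normalization, centred columns, a floor at the 10th percentile, an intensity trend with robust eBayes, 1 row per gene, no line term, and each column or line left out.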

Additional observations from a re-analysis of the deposited data

How the results depend on the processing

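Averaged over both doxycycline states, the differences of the 10 genes from the vector line kept their sign as deposited, after quantile normalization, with the median taken over all rows and with a floor at the 10th percentile, from -2.39 to -0.06 log2, and 5 genes were at least 1.5-fold lower in each. The single difference of DUSP4 in untreated wtAPE1 was 0.11 relative to the median row and -0.10 as deposited. The count of doxycycline responses past 1.5-fold fell from 1 (SPRY4) to 0 as deposited, after quantile normalization and with the median taken over all rows. Calls for the common doxycycline effect were 0 except 9 with centred columns (4 higher, 5 lower), and for ubAPE1 against wtAPE1 0 except 1 with centred columns. For wtAPE1 against vector, 245 calls became 112 (filter at the 50th percentile), 558 (quantile normalization), 656 (centred) and 973 (without the ubAPE1 line), and 99 to 973 with 1 column left out. For ubAPE1 against vector, 162 became 62, 434 and 539 under the first 3 of these and 327 without the wtAPE1 line, and 57 to 933 with 1 column left out. In the tests of the doxycycline effect and of ubAPE1 against wtAPE1, none of the 10 genes passed under any setting tried. The common doxycycline effect changed sign in SPRED1 (0.0328 after quantile normalization, 0.0251 with centred columns, 0.222 without the ubAPE1 line) and, without that line, in ETV1 (0.0200), SPRED2 (0.0671) and SPRY1 (0.000859). In DUSP4 it did so without the wtAPE1 line (0.0158). With 1 column left out, this effect ran from -0.168 to 0.0200 in ETV1, -0.116 to 0.0158 in DUSP4, -0.0928 to 0.000859 in SPRY1, -0.212 to 0.222 in SPRED1 and -0.218 to 0.0671 in SPRED2. The ubAPE1 minus wtAPE1 difference ran from -0.00249 to 0.289 in ETV1, -0.153 to 0.0778 in DUSP4, -0.204 to 0.533 in SPRED1 and -0.129 to 0.315 in SPRED2, with no change of sign from 0.0895 to 0.358 in ETV5 and 0.0542 to 0.320 in SPRY4, and the ubAPE1 minus vector difference of NF1 from -0.590 to 0.0941. The causes were not tested. After quantile normalization 4 of the 5 nearest genes were shared for ETV5, 3 for DUSP6 and 4 for SPRY1. Using every row of a gene was not run because each of the 10 genes has 1 row. The cell line term pairs the doxycycline states of each line, and without that term the common doxycycline effect also had 0 calls. No paired analysis by replicate number was made because the labels give none.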
